A study of Homo sapiens with 4 samples.

Results

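SOD2, the superoxide dismutase of the mitochondrial matrix, was examined together with 9 other antioxidant enzyme genes in HeyC2 and SKOV3, both of them ovarian cancer lines. The 10 genes, SOD1, SOD2, CAT, GPX1, GPX4, PRDX3, PRDX5, TXNRD1, NQO1 and HMOX1, were taken by symbol from the 26506 genes of the expression tables, and all 10 were found. The list was drawn up because SOD2 had been seen to differ from the other genes in opposite directions in the 2 lines after TET1 expression. SOD2 was thus chosen by its change relative to all genes in these same libraries, so its values are given here as a description and support nothing further. RNA from control and TET1 cells of each line was sequenced as 1 library per condition, 4 libraries in all. By the protocol of the study, TET1 cells received 3 µg of pCMV6/TET1, a plasmid in which the CMV promoter drives the DNA demethylase TET1, and control cells received the empty plasmid. Cells of both kinds were selected in 400 µg/ml Geneticin, so lipofection and drug selection are shared by control and TET1 cells, and the labels give the genotype of the controls as wild-type. Whether the selected cells were pools or clones is not given in the sources used here. With 1 library per condition no difference has a replicate check, no test was made, and a higher or lower value is a statement about these libraries.

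Mitochondrial respiration passes some electrons to oxygen and forms superoxide, which superoxide dismutases turn into hydrogen peroxide. SOD2 does this in the mitochondrial matrix and SOD1 mainly in the cytosol. Catalase, the glutathione peroxidases and the peroxiredoxins then remove the peroxide, and thioredoxin reductase keeps thioredoxin, on which most peroxiredoxins depend, in its reduced form. NQO1, HMOX1 and TXNRD1 are classic targets of NRF2, a transcription factor that KEAP1 marks for degradation in unstressed cells, whereas SOD2 is a well-known target of NF-kB.

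The deposited FPKM (fragments per kilobase of transcript, adjusted for depth) of the TET1 libraries carried a constant factor that set GAPDH to its control level, 3.23 in HeyC2 and 1.35 in SKOV3. Levels below are therefore given as unscaled FPKM, with this factor divided out. Changes are given as relative log2 changes, which are log2 of (TET1 FPKM + 1) over (control FPKM + 1) as deposited, minus the median of all genes tested in that line, 1.61 in HeyC2 (12993 genes) and 0.59 in SKOV3 (13339 genes). Tested were genes whose FPKM averaged 1 or more in the pair of libraries of a line. The estimated depth was 6730000 to 7510000 fragments per library. TET1 itself stood at 0.20 FPKM in control and 0.52 in TET1 cells of HeyC2, and 0.43 in control and 1.80 in TET1 cells of SKOV3. KRT8, KRT18 and PAX8, markers of epithelial and Mullerian cells, were at 74.6 FPKM or more as deposited in all 4 libraries. The ovarian markers WT1 and MUC16 were at 0.71 FPKM or less, and EPCAM was at 1.23 FPKM or less in both HeyC2 libraries. KRT19, another epithelial keratin, was at 255 FPKM in SKOV3 control cells and at 0.62 FPKM in SKOV3 TET1 cells, and its part in the results below was not tested. Of the leukocyte markers, CD3E was listed at 0 and PTPRC at 0.38 FPKM or less in all 4, whereas CD68, a macrophage marker, was at 56.2 and 292 FPKM as deposited in control and TET1 cells of HeyC2 and at 12.7 and 27.4 in those of SKOV3, and its part was not tested. CDH5, an endothelial cadherin, stood at 18.9 and 306 FPKM as deposited in control and TET1 cells of HeyC2, and its part was not tested either. The other endothelial markers, PECAM1 and VWF, were at 0.55 FPKM or less, and of the fibroblast markers DCN was at 0.08 FPKM or less while COL1A1 was at 0.32 and 37.2 FPKM in control and TET1 cells of SKOV3.

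All 10 genes passed the filter in both lines. In HeyC2, 4 of the 10 (GPX1, SOD2, HMOX1 and GPX4) were at least 1.5-fold above the all-gene median and 3 (TXNRD1, NQO1 and CAT) at least 1.5-fold below it. Of all genes tested in HeyC2, 13.0% were that far above and 12.9% that far below. In SKOV3, 1 gene (HMOX1) was at least 1.5-fold above and 3 genes (SOD2, TXNRD1 and PRDX3) at least 1.5-fold below, where 20.6% and 17.9% of all genes were. The same shares are the background for the counts of other gene lists below. These contrasts were used in choosing the list, so nothing is read from the counts beside the background. The median relative change of the 10 genes was 0.29 in HeyC2 and -0.24 in SKOV3, against 0 for all genes by construction. SOD2 was alone among the 10 in lying at least 1.5-fold above in HeyC2 and 1.5-fold below in SKOV3, as did 2.08% of the 11888 genes tested in both lines. HMOX1 was above in both lines (3.58% of these genes) and TXNRD1 below in both (2.73%). The reverse of the SOD2 pattern, held by 2.31% of these genes, was seen in 0 of the 10. Between HeyC2 and SKOV3 the relative changes had opposite signs for 5 of the 10 genes and for 47.5% of all genes tested in both.

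**Figure D1:**
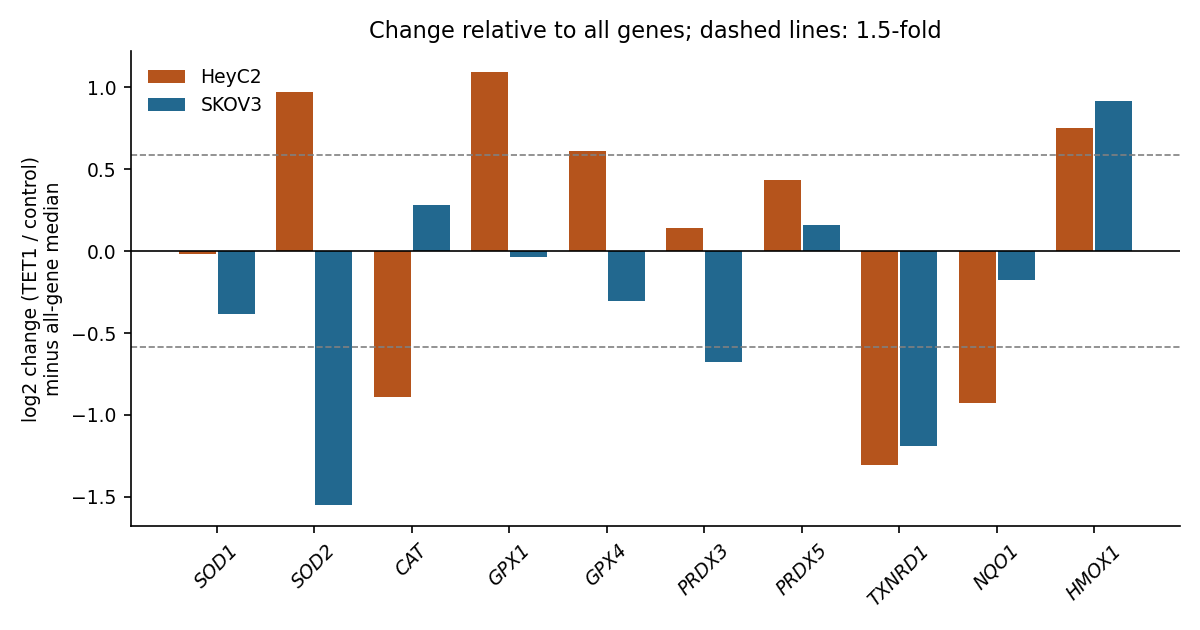
Bars show the relative log2 change (TET1 over control, minus the all-gene median of the line) of each of the 10 genes in HeyC2 and SKOV3, 1 library per condition, so there are no error bars; dashed lines mark 1.5-fold. SOD2 has the longest bar of the 10 in SKOV3, at -1.55, and a bar of 0.97 upward in HeyC2, while TXNRD1 points down and HMOX1 up in both lines.

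SOD2 (GRCh37 chromosome 6, 160090101 to 160114273, minus strand) was at 61.5 unscaled FPKM in control and 115 in TET1 cells of HeyC2, and 160 in control and 60.6 in TET1 cells of SKOV3. The HeyC2 control and SKOV3 TET1 libraries were thus at nearly the same level, HeyC2 TET1 was higher and the SKOV3 control was the highest. As deposited, the values were 61.5, 373, 160 and 81.6 FPKM in the same order. The relative log2 change was 0.97 in HeyC2, 1.96-fold above the typical gene, with 4.45% of tested genes higher. In SKOV3 it was -1.55, which is 2.92-fold below, with 2.03% of tested genes lower. The difference between the lines was 2.52 on the log2 scale, and 89 of 11888 genes had a larger one in this direction. Counting error, the only error that can be estimated here, was 0.11 on the log2 scale in each line, from at least 251 estimated fragments on SOD2 per library. In bulk RNA, fewer cells with the transcript and less of it per cell cannot be told apart. Among the 10 genes by unscaled FPKM, SOD2 ranked 7 of 10 without and 5 of 10 with TET1 in HeyC2, and 5 of 10 without and 8 of 10 with TET1 in SKOV3.

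**Figure D2:**
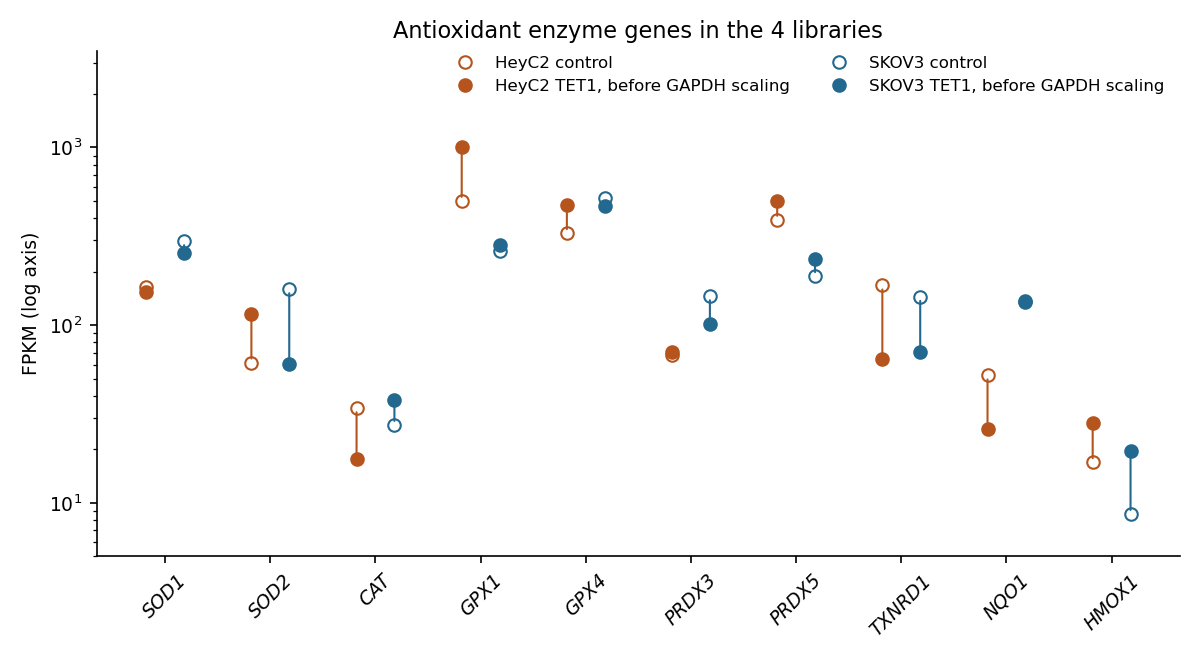
Unscaled FPKM of each gene on a log axis, with open circles for control and filled circles for TET1 libraries, 1 library each, joined by a line within a cell line. The SOD2 lines run in opposite senses in the lines, from 61.5 up to 115 FPKM in HeyC2 and from 160 down to 60.6 FPKM in SKOV3, and the NQO1 circles of SKOV3 lie on top of each other at 137 and 136 FPKM.

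SOD1 (chromosome 21, 33032006 to 33041244), the copper-zinc enzyme of the cytosol, was at 165 and 154 unscaled FPKM in control and TET1 cells of HeyC2 and at 297 and 254 in those of SKOV3. Its relative change was -0.02 in HeyC2 and -0.39 in SKOV3, so it lay within 1.5-fold of the typical gene in both lines. The ratio of SOD2 to SOD1 FPKM, which no scaling of a library can alter, was 0.374 in control and 0.750 in TET1 cells of HeyC2, and 0.537 in control and 0.238 in TET1 cells of SKOV3. The ratio was therefore 2.01-fold higher in TET1 than in control cells in HeyC2 and 2.25-fold lower in SKOV3. In this ratio the mitochondrial enzyme was nearest to the cytosolic enzyme in HeyC2 TET1 and farthest below it in SKOV3 TET1. Against PRDX3, the peroxiredoxin of the same compartment, SOD2 stood at 0.911 and 1.62 in control and TET1 cells of HeyC2 and at 1.09 and 0.596 in those of SKOV3.

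Of the proteins that serve SOD1 or share its substrate, CCS, the copper chaperone of SOD1, had relative changes of 0.53 in HeyC2 and 0.47 in SKOV3. ATOX1, a copper chaperone of the secretory pathway, had -0.48 and -0.58. SOD3, the extracellular dismutase, was at 0.10 FPKM or less in HeyC2 and did not pass the filter there, and in SKOV3 it was at 16.3 and 28.4 FPKM as deposited, a relative change of 0.18. Of these superoxide dismutase partners, 0 of 3 tested in HeyC2 and 0 of 4 in SKOV3 were 1.5-fold away from the typical gene.

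The promoters of 3 genes are shown because their relative changes cover the patterns seen: SOD2 was above in HeyC2 and below in SKOV3, CAT was below in HeyC2 alone, and TXNRD1 was below in both. The sequences are the bases just upstream of the start of the canonical transcript, read 5′ to 3′ on the strand of the gene from the RefSeq promoter table (GRCh38.p14). Each was placed by an exact match on GRCh37. For SOD2 the 37 bases nearest the start, which belong to exons of other transcripts, are left out. Capitals mark the GC box GGGCGG and the core of the antioxidant response element TGACNNNGC, on either strand. SOD2 spans chr6:160114311-160114523 on the minus strand, CAT chr11:34460231-34460480 on the plus strand and TXNRD1 chr12:104609307-104609556 on the plus strand.
SOD2: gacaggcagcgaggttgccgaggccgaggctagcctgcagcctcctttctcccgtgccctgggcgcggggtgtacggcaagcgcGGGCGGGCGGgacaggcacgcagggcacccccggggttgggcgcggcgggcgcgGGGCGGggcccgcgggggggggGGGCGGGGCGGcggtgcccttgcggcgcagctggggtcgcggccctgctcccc
CAT: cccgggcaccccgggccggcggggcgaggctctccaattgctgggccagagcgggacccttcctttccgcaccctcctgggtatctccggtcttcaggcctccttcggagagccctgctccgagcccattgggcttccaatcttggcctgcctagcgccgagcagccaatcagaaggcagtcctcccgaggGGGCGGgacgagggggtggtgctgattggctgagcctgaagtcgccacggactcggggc
TXNRD1: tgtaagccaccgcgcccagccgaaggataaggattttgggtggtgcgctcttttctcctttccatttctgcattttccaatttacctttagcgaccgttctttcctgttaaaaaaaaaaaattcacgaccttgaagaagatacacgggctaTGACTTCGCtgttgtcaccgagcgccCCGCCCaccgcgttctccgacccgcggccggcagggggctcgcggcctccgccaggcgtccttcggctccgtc

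The printed SOD2 stretch held 5 GC boxes, of which 4 overlap another in pairs, and the full 250 bases before the start held 6, where 97.8% of the 35116 human promoter windows held fewer. A GC box occurs in 42.6% of these windows. The 250 bases of SOD2 also held 35 CpG, the dinucleotide that TET1 acts on when it is methylated, against a median of 11 per window, and 94.2% of windows held fewer. RefSeq lists 4 starts for SOD2, and these values are for the start of the canonical transcript. The windows of the other starts held 1, 4 and 1 GC boxes and 26, 33 and 19 CpG. The CAT promoter held 1 GC box, 18 CpG and 5 copies of the CCAAT box (CCAAT on either strand), a motif in 32.0% of windows. The TXNRD1 promoter held 1 GC box, 24 CpG and 1 core of the antioxidant response element, which 10.9% of all windows hold. TXNRD1 has 2 listed starts, and the window of the other held 2 GC boxes, 9 CpG and 1 such core. For GPX4 and PRDX5, which also have further starts, the window is that of the canonical transcript. GPX1 and GPX4 held 1 GC box each, PRDX5 and NQO1 2 each and PRDX3 3, and none of these 5 genes held the element's core in this window. Bases farther upstream than the 250 of each window were not searched, so a core there would not be seen. These matches describe letters and do not show that a factor binds, and methylation was not analysed here.

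Genes beside SOD2 were examined to describe the region around it. WTAP, a subunit of the RNA methylation complex and the nearest gene on the higher side, was at 29.6 and 148 FPKM as deposited in control and TET1 cells of HeyC2 and at 54.7 and 49.3 in those of SKOV3. Its relative changes of 0.68 and -0.73 were past 1.5-fold in the same directions as those of SOD2, as were 2.08% of genes tested in both lines. ACAT2, the next gene and an enzyme of acetoacetyl-CoA synthesis in the cytosol, had 0.27 and -1.21. On the lower side, TAGAP was listed at 0 in all 4 libraries, and FNDC1 was listed at 0 in HeyC2 and had a relative change of -0.11 in SKOV3. A wider view was added after these values had been seen. Within 500 kb of SOD2, 6 genes including SOD2 were tested in both lines, and all 6 lay below the typical gene in SKOV3, at -0.73 or lower. By construction as many of all genes lie below the all-gene median as above it. Apart from SOD2, these genes all start on the higher side. FNDC1 on the lower side, tested in SKOV3 alone, is the gene at -0.11 given above. The nearest genes tested in both lines on that side were RSPH3 (-0.36 in HeyC2 and -0.03 in SKOV3) and EZR (0.20 and -1.71). TCP1, a subunit of the chaperonin, was at -1.37, IGF2R at -1.07 and the mitochondrial ribosomal protein gene MRPL18 at -0.90, with values of -0.10, -0.59 and -0.24 in HeyC2. Among the 48 other genes within 10 Mb the median was -0.12 in HeyC2 and -0.49 in SKOV3, and 39 of the 48 were below the typical gene in SKOV3 against 30 in HeyC2. SOD2 was higher than all 48 in HeyC2, and 3 of the 48 were lower than SOD2 in SKOV3. With the median of the 50 nearest tested genes subtracted in place of the all-gene median, SOD2 had values of 1.07 for HeyC2 and -1.07 for SKOV3. The part of the region in the SOD2 values was not tested beyond this subtraction.

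**Figure D3:**
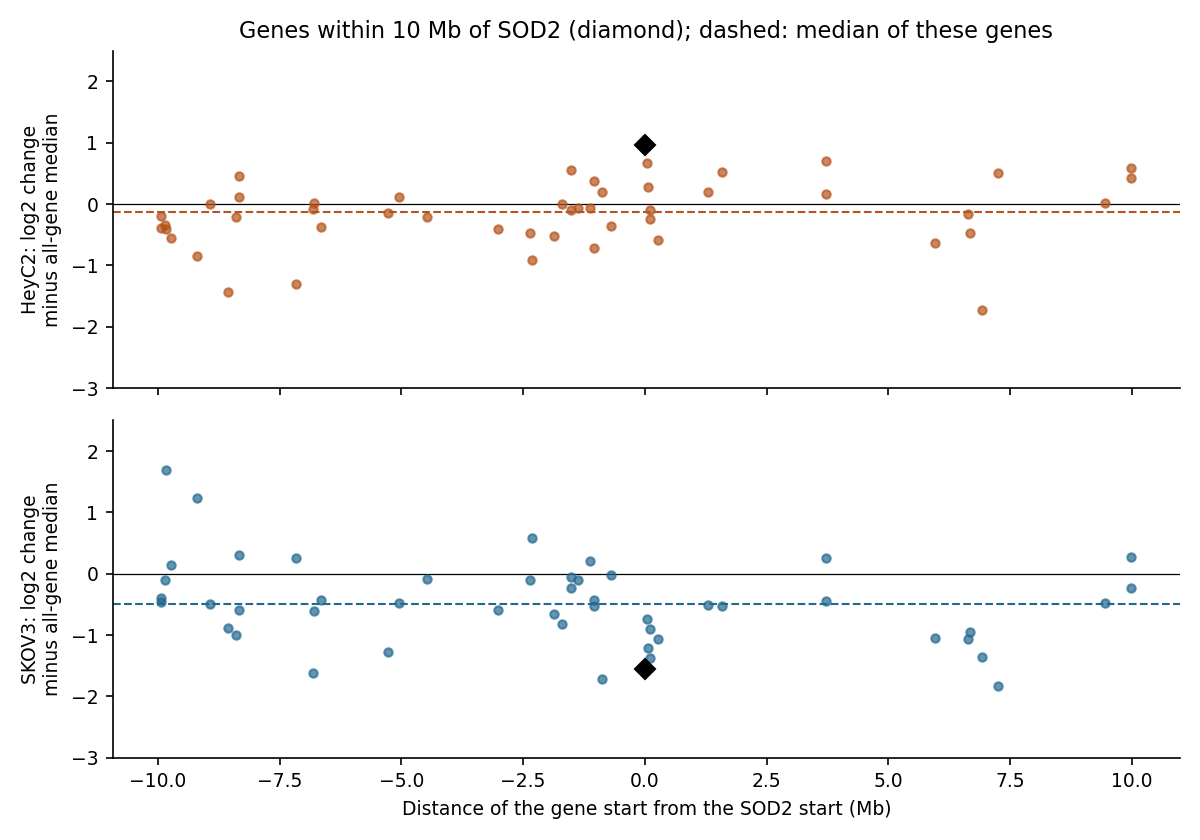
Relative log2 change of each tested gene within 10 Mb of SOD2 against the distance of its start from the SOD2 start, HeyC2 above and SKOV3 below; the diamond is SOD2 and the dashed line the median of the other genes, -0.12 in HeyC2 and -0.49 in SKOV3. SOD2 is above every other point in HeyC2, and the genes next to it on the higher side in SKOV3 lie between -0.73 and -1.37.

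The genes whose pattern over the 4 libraries was most like that of SOD2 were found by the Euclidean distance of log2(FPKM + 1), after centring each library and each gene, over 11888 genes. The nearest was RBPMS, an RNA-binding protein gene, at a distance of 0.04, with relative changes of 0.99 in HeyC2 and -1.51 in SKOV3. It was followed by CCDC86 (0.19), MYBL1 (0.28) and LYAR (0.31). The nearest of the other 9 antioxidant genes was GPX4, at rank 629 and a distance of 0.92. With only 4 libraries, a short distance says that the values run together in these libraries and no more.

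GPX1 (chromosome 3, 49394609 to 49395786, minus strand), the cytosolic and mitochondrial glutathione peroxidase and a selenoprotein, was at 499.5 unscaled FPKM in control and 1005 in TET1 cells of HeyC2, and 260.35 in control and 284 in TET1 cells of SKOV3. HeyC2 TET1 was thus far above the other 3 libraries. The relative change was 1.09 in HeyC2, the highest of the 10 genes, and -0.04 in SKOV3. GPX4 (chromosome 19, 1103993 to 1106778), which reduces lipid peroxides in membranes, was at 329 and 474 unscaled FPKM in the HeyC2 libraries and at 518 and 469.6 in the SKOV3 libraries. Its relative change of 0.61 in HeyC2 lay just past 1.5-fold and its value of -0.30 in SKOV3 did not reach it, and the HeyC2 call was lost in 9 of 11 other settings. The ratio of GPX1 to GPX4 was 1.52 in control and 2.12 in TET1 cells of HeyC2, and 0.503 in control and 0.604 in TET1 cells of SKOV3, so GPX1 exceeded GPX4 in both HeyC2 libraries and in neither SKOV3 library.

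CAT (chromosome 11, 34460481 to 34493607), the peroxisomal catalase, ran the other way from SOD2. It was at 34.1 unscaled FPKM in control and 17.6 in TET1 cells of HeyC2, and 27.4 in control and 37.8 in TET1 cells of SKOV3. HeyC2 TET1 was the lowest and SKOV3 TET1 the highest of the 4, with relative changes of -0.89 in HeyC2 and 0.28 in SKOV3. The sign in HeyC2 depends on the scaling, since CAT was 1.66-fold higher as deposited and 1.85-fold lower relative to the typical gene. The ratio of CAT to GPX1, free of the scaling, was 0.0683 in the HeyC2 control and 0.0175 in HeyC2 TET1, 3.91-fold lower, and 0.105 and 0.133 in SKOV3. Of 15 genes for import into peroxisomes, the compartment of catalase, 0 were 1.5-fold above and 2 below in HeyC2, and 1 was above and 0 below in SKOV3. The highest of these by the mean of both lines was PEX2 (0.33 in HeyC2 and 0.62 in SKOV3) and the lowest PEX14 (-0.29 and -0.40).

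PRDX3 (chromosome 10, 120927232 to 120938324, minus strand), the peroxiredoxin of the mitochondrial matrix, was at 67.5 and 71.0 unscaled FPKM in HeyC2 and at 146 and 102 in SKOV3. The HeyC2 libraries were at nearly the same level, and the SKOV3 TET1 library was below its control. The relative changes were 0.14 and -0.68, and the second dropped inside 1.5-fold in 6 of 11 other settings. PRDX5 (chromosome 11, 64085593 to 64089283), found in mitochondria, peroxisomes and the cytosol, was at 391 and 498 unscaled FPKM in HeyC2 and at 188 and 236 in SKOV3. It was higher in both HeyC2 libraries than in either SKOV3 library, and its relative changes of 0.43 and 0.16 stayed inside 1.5-fold. Of the other glutathione peroxidases and peroxiredoxins, 1 of 6 tested in HeyC2 was above and 0 below, and 0 of 5 in SKOV3 were above and 2 below. The one above in HeyC2 was the secreted peroxidase GPX3, singled out after its values were seen, at 43.8 and 188 unscaled FPKM in HeyC2 and at 0.09 FPKM in both SKOV3 libraries. PRDX4 of the endoplasmic reticulum had the highest mean of the list (0.37 and -0.06) and PRDX1 of the cytosol the lowest (0.11 and -0.72). PRDX2 was listed at 0 in the HeyC2 control and at 0.85 unscaled FPKM in HeyC2 TET1, against 207 and 143 in SKOV3.

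TXNRD1 (chromosome 12, 104609557 to 104744085), the cytosolic thioredoxin reductase and a selenoprotein, was at 168 unscaled FPKM in control and 64.1 in TET1 cells of HeyC2, and 145 in control and 70.6 in TET1 cells of SKOV3. Both TET1 libraries lay well below both controls. The relative changes were -1.30 in HeyC2, 2.47-fold below the typical gene, and -1.19 in SKOV3, 2.28-fold below. As deposited, TXNRD1 was 1.24-fold higher in HeyC2 TET1 than in its control, so the direction in HeyC2 depends on the scaling, and in SKOV3 it was lower on every scale tried. EID3 lies inside TXNRD1 and was at 1.30 FPKM or less in all 4 libraries. Thioredoxin itself, TXN, had the lowest mean of the thioredoxin and glutaredoxin system, -0.62 in HeyC2 and -0.77 in SKOV3, relative to the all-gene median, although TXN was higher in TET1 than in control cells of HeyC2 as deposited (278 and 551 FPKM). TXNIP, the inhibitor of thioredoxin, had the highest, with 77.6 and 154 unscaled FPKM in HeyC2 and 108 and 395 in SKOV3, and relative changes of 1.06 and 1.70. Thus TXNRD1 and TXN were below, and TXNIP above, the typical gene in both lines. The other thioredoxin and reductases of the list did not share this, with TXN2 at 0.10 and -0.08, TXNRD2 at 0.10 and -0.38 and TXNRD3 at 0.29 and 0.75. Of the 17 genes of this system tested in HeyC2, 3 were above and 2 below by 1.5-fold, with a median of 0.10. Of the 16 tested in SKOV3, 6 were above and 2 below, with a median of -0.11. MSRB1, a methionine sulfoxide reductase and one of the 3 above in HeyC2, was listed at 0 in the HeyC2 control. TXNRD1, GPX1 and GPX4 need selenocysteine, and of the 8 genes for selenoprotein synthesis 0 were above and 1 below in HeyC2, and 2 were above and 2 below in SKOV3. EEFSEC, the selenocysteine elongation factor, had the highest mean of these (-0.39 and 1.06) and PSTK the lowest (-0.53 and -0.65). PSTK was at 0.79 and 0.86 unscaled FPKM in control and TET1 cells of HeyC2, a level at which this scale shifts values downward.

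NQO1 and HMOX1, both NRF2 targets, ran apart from each other. NQO1 (chromosome 16, 69743304 to 69760463, minus strand), a quinone reductase, was at 52.2 and 26.1 unscaled FPKM in HeyC2 and at 137 and 136 in SKOV3. HeyC2 TET1 was below its control and the SKOV3 libraries were level, with relative changes of -0.93 and -0.18. As deposited, NQO1 was 1.61-fold higher in HeyC2 TET1, so its direction there depends on the scaling. HMOX1 (chromosome 22, 35777089 to 35790200), heme oxygenase 1, which breaks down heme and frees iron, was at 16.9 unscaled FPKM in control and 28.2 in TET1 cells of HeyC2, and 8.64 in control and 19.6 in TET1 cells of SKOV3. Both TET1 libraries were above both controls, and the relative changes were 0.75 and 0.91. HMOX1 rested on the fewest fragments of the 10 genes in SKOV3, at least 53.5 in the control, with a counting error of 0.24 on the log2 scale in SKOV3. The ratio of NQO1 to HMOX1 was 3.34-fold lower in TET1 than in control cells in HeyC2 (3.09 and 0.925) and 2.29-fold lower in SKOV3 (15.9 and 6.94).

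**Figure D4:**
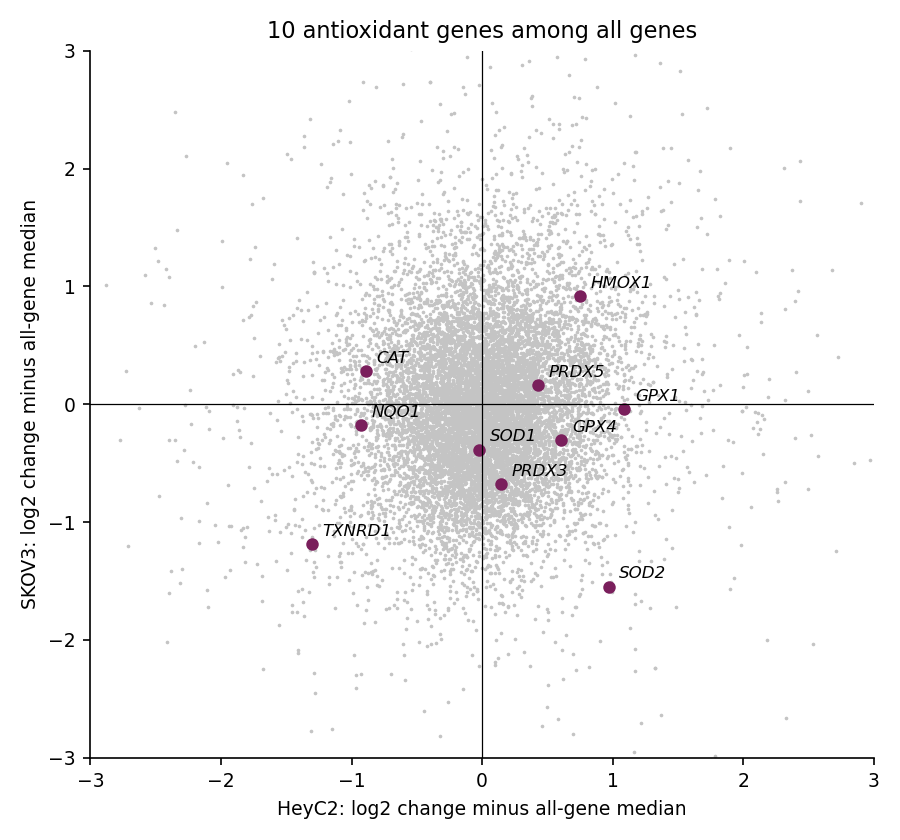
Each grey point is 1 of the genes tested in both lines, with its relative log2 change in HeyC2 on the horizontal and in SKOV3 on the vertical axis, and the 10 antioxidant genes are named; 69 of 11888 genes lie outside the axes. SOD2 lies at the lower right (0.97 and -1.55), TXNRD1 at the lower left (-1.30 and -1.19) and HMOX1 at the upper right (0.75 and 0.91), and the other 7 are nearer the axes.

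Other genes of these pathways were followed in lists that leave out the 10 genes. Of the genes that control NRF2, 0 of 10 were 1.5-fold above and 1 below in HeyC2 (median -0.27), and 0 were above and 3 below in SKOV3 (median -0.28). The 3 in SKOV3 were KEAP1 (-1.02), MAFF (-0.89) and BACH1 (-0.66). The list holds partners of NRF2 as well as KEAP1, which marks it for degradation, so the count gives no direction of NRF2 activity. NFE2L1, the NRF2 relative, had the highest mean (-0.29 and 0.04), and MAFF, a small MAF partner of NRF2, the lowest (-1.23 and -0.89). NFE2L2, which encodes NRF2, was at -0.26 in HeyC2 and -0.04 in SKOV3. Of the other NRF2 targets, 4 of 26 were above and 6 below in HeyC2 (median -0.20), and 5 of 27 were above and 11 below in SKOV3 (median -0.31). ABCC3, an export pump, had the highest mean (-0.18 and 1.94). SLC7A11, the cystine importer that supplies glutathione synthesis, had the lowest, at 7.44 and 1.54 unscaled FPKM in HeyC2 and 34.4 and 12.5 in SKOV3, with relative changes of -2.11 and -1.58. Both TET1 libraries of SLC7A11 were lower than their controls. It was, with GCLM, TALDO1 and TXN, 1 of 4 genes of this list that were below by 1.5-fold in both lines. The signs of the list medians depend on the shift of all genes, since 13 of 13 list medians in HeyC2 and 12 of 13 in SKOV3 were above 0 as deposited, before that shift was subtracted.

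For glutathione synthesis and use, 0 of 22 genes were above and 6 below in HeyC2 (median -0.20), and 4 of 23 were above and 7 below in SKOV3 (median -0.17). CHAC1, an enzyme that degrades glutathione, had the highest mean of this list and ran apart in the lines, at 3.49 and 1.70 unscaled FPKM in HeyC2 and 2.84 and 46.0 in SKOV3. For heme and iron handling, 3 of 14 were above and 0 below in HeyC2, and 2 were above and 2 below in SKOV3. Of these, FTH1 (ferritin heavy chain, 1.84 and -0.80) and TFRC (transferrin receptor, 0.84 and -1.50) were above in HeyC2 and below in SKOV3, as was SOD2, and FTH1 was singled out after its values were seen. SLC11A2, an iron transporter, had the highest mean of the list (0.36 and 0.84). For quinone reductases and guards against ferroptosis, 1 of 8 was above and 0 below in HeyC2, and 0 were above and 2 below in SKOV3, with GCH1 the highest by mean (0.67 and 0.50) and AIFM2 the lowest (-0.26 and -2.52). For sources of superoxide and peroxide, 2 of 10 were above and 1 below in HeyC2, and 4 of 8 were above and 2 below in SKOV3 (median 0.47), with NOXA1 the highest (0.89 and 1.77) and ERO1A the lowest (-0.32 and -1.05).

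Among transcription factors known to act on SOD2, with the deacetylase SIRT3 on the same list, 0 of 16 were above and 5 below in HeyC2 (median -0.43), and 5 of 17 were above and 5 below in SKOV3 (median -0.04). FOXM1 had the lowest mean (-1.83 and -1.21) and SIRT3, which activates the SOD2 protein, the highest (0.24 and 0.87). NFKB1, singled out after its values were seen, had a relative change of -0.42 in HeyC2 and of -1.61 in SKOV3, whereas RELA, singled out likewise, had 0.39 and -0.19. Of the NF-kB targets, a list that leaves SOD2 out, 7 of 16 were above and 4 below in HeyC2 (median 0.16), and 2 of 14 were above and 8 below in SKOV3 (median -1.08). Of all genes tested, 13.0% were above and 12.9% below in HeyC2, and 20.6% and 17.9% in SKOV3. This SKOV3 median was below 0 in every setting tried, from -1.18 to -0.07. Of the 13 tested in both lines, 3 had the pattern of SOD2 (2.08% of all genes), namely the chemokine genes CXCL1, CXCL2 and CXCL8, singled out after their values were seen. A further 3 were below in both lines (2.73% of all genes), namely IL6, IL1B and TNIP1, and 1, TNFAIP2, was above in both (3.58%). CXCL8 was at 21.7 and 43.1 unscaled FPKM in control and TET1 cells of HeyC2 and at 74.3 and 4.89 in those of SKOV3. TNFAIP2 had the highest mean of this list (0.87 and 1.62) and IL1B the lowest (-1.41 and -2.11). The difference between the lines was not tested.

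**Figure D5:**
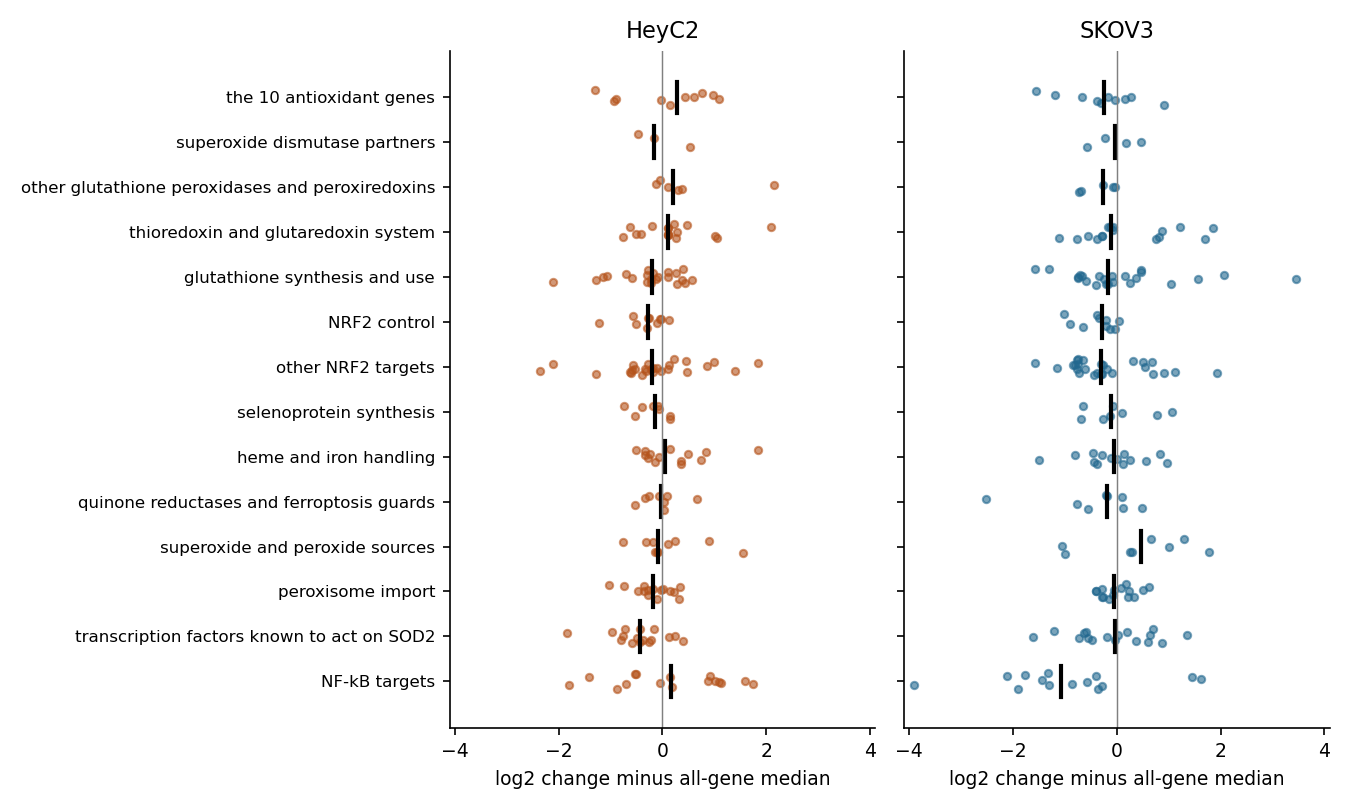
Each point is the relative log2 change of 1 tested gene, HeyC2 on the left and SKOV3 on the right, with 1 row per gene list and a black bar at the list median; vertical scatter within a row only separates the points. The NF-kB targets have the lowest median in SKOV3, -1.08 against 0.16 in HeyC2, and the medians of the other lists lie between -0.43 and 0.47.

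The control libraries of the lines also differed in these genes, in a comparison that shares its libraries with the contrasts above. The HeyC2 and SKOV3 tables were deposited separately, so levels are compared as log2 of HeyC2 over SKOV3 control FPKM minus the all-gene median of -0.27 (12488 genes). By this measure 3 genes were at least 1.5-fold higher in HeyC2 (PRDX5 at 1.32, HMOX1 at 1.16 and GPX1 between them), where 29.0% of all genes were. A further 3 were at least 1.5-fold lower in HeyC2 (NQO1 at -1.11, SOD2 at -1.09 and PRDX3 at -0.83), where 28.6% of all genes were. In either direction 57.6% of all genes were that far apart. SOD2 and PRDX3, both enzymes of the mitochondrial matrix, were thus lower in the HeyC2 control than in the SKOV3 control, by 2.59-fold and 2.16-fold as deposited. In the TET1 libraries, by unscaled FPKM, SOD2 was 1.90-fold higher in HeyC2 than in SKOV3, so the order of the lines was turned, whereas PRDX3 was still lower in HeyC2 at 0.698 times its SKOV3 level. As a share of the summed FPKM of all genes, the 10 genes made up 0.370% and 0.485% in control and TET1 cells of HeyC2 and 0.399% and 0.366% in those of SKOV3.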

How the data were processed

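RNA of 4 cultures, control and TET1 cells of HeyC2 and SKOV3, had been sequenced as paired-end TruSeq libraries. The authors aligned the reads to hg19 with Bowtie2 2.2.6 and derived FPKM with RSEM 1.2.17, and the deposited values are these FPKM, 1 table per cell line with 26506 genes. The TET1 columns had been multiplied by a constant that equalises GAPDH, which was recovered from the value steps (multiples of 0.01 FPKM times the constant held 99.8% and 99.6% of distinct values below 40 FPKM). Read totals, the annotation and filters are not given in the sources used here, so depth was estimated from the spacing of the lowest values, and counting errors cover counting only.

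Relative log2 changes used a pseudocount of 1, genes averaging 1 FPKM or more in the libraries compared, and subtraction of the all-gene median. The pseudocount, added to the deposited FPKM, draws the log2 ratio of low genes towards 0 before the median is subtracted. In the TET1 contrasts low genes thus tend to be shifted downward, more in HeyC2 (median 1.61) than in SKOV3 (0.59). A difference of 1.5-fold was counted. No paired or replicate test was possible with 1 library per condition. The 10 genes and all lists, written by hand, were chosen with earlier results of these data known. Named were the 10 genes, TET1, GAPDH, the highest and lowest gene of each list by the mean of both lines, the 5 genes nearest to SOD2 in pattern and the 2 nearest listed genes on each side of it, and SOD3, GPX3, PRDX2, MSRB1, EID3, NFE2L2, GCLM, TALDO1, FTH1, NFKB1, RELA, the chemokines, IL6, TNIP1 and the genes within 500 kb were added after their values were seen. Some values under this rule are not reported here. Positions came from GENCODE 44 on GRCh37 and promoter windows from RefSeq. Of the 10 genes, 8 had a promoter entry, all but SOD1 and HMOX1. GENCODE names pseudogenes after SOD1 (3), SOD2 (1), GPX1 (2), PRDX3 (4) and PRDX5 (1), none of them in the tables, and how their reads were assigned is not given. The scripts were tested on simulated data and ran in Python 3.11.15 with numpy 2.4.6, pandas 2.3.3, scipy 1.17.1 and matplotlib 3.10.9.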

Additional observations from a re-analysis of the deposited data

Results flagged for a closer look

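For 5 of the 10 genes the relative log2 change had opposite signs in the only TET1 and control pair of each line. The difference of HeyC2 minus SKOV3 was 2.52 for SOD2 (0.97 and -1.55), -1.17 for CAT (-0.89 and 0.28), 1.13 for GPX1 (1.09 and -0.04), 0.91 for GPX4 (0.61 and -0.30) and 0.82 for PRDX3 (0.14 and -0.68). None of these differences was tested, and 47.5% of all genes tested in both lines had opposite signs. SOD2 was the only one of the 5 past 1.5-fold in both lines. Over the 12 settings that give a value, the reported one included, SOD2 kept its sign in all 12 in each line. In SKOV3 the sign was kept in 5 of 12 for GPX1 and in 8 of 12 for GPX4, so their opposite signs depend on the setting. For CAT and PRDX3 the sign in HeyC2 was kept in 10 and 11 of 12, so theirs depend on it too.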

How the results depend on the processing

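The results were recomputed under 12 other settings and 1 more chosen after the data were examined, in which the median of the 50 nearest genes on the chromosome was subtracted. SOD2 lay above the reference in HeyC2 and below it in SKOV3 in the 11 of these that give it a value, which leaves out the thresholds of 2-fold and 1.2-fold, with relative changes from 0.82 to 2.58 and from -1.63 to -0.96. Without the filter on low values, the all-gene median includes genes listed at 0 and drops to 0.62 in HeyC2 and 0.08 in SKOV3. SOD2 was then at 1.96 in HeyC2, CAT turned to 0.10 and NQO1 to 0.058, and the calls at 1.5-fold were 7 above and 0 below in HeyC2 (39.6% and 42.5% of all genes) and 3 above and 2 below in SKOV3 (25.4% and 3.44%). With no median subtracted from the deposited FPKM, SOD2 was at 2.58, CAT turned to 0.72, TXNRD1 to 0.31 and NQO1 to 0.68 in HeyC2, where 9 genes were above and 0 below, as were 95.8% and 0.500% of all genes. At 2-fold, 2 genes were called in HeyC2 (8.74% of all genes), 2 in SKOV3 (16.7%) and 5 between the controls (36.4%), and at 1.2-fold 8 in HeyC2 (57.3%), 7 in SKOV3 (69.0%) and 10 between the controls (79.4%). SOD2, 1.96-fold above the typical gene in HeyC2 and 2.92-fold below it in SKOV3, was called at 2-fold in SKOV3 alone. Its pattern of opposite calls was thus lost at that threshold. The calls of GPX4 in HeyC2 and PRDX3 in SKOV3 were lost in 9 and 6 of 11 settings. Between the controls, 3 genes were above and 5 below without the filter (11.8% and 20.6% of all genes). The same counts were found with no median subtracted (21.9% and 37.8%) and as TPM. After upper-quartile scaling 3 were above and 4 below. With a pseudocount of 0.1 or 0.01, 4 were above and 3 below, and with the median of the 500 nearest genes subtracted 4 were above and 5 below. No share of all genes was computed for TPM, upper-quartile scaling, these pseudocounts or the 500 nearest genes, so nothing is read from those counts. Beyond the all-gene shift itself, the cause was not tested. No paired analysis was possible because each condition has 1 library. Depth limits HMOX1 most, and no statement covers the spread between cultures.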
